A study of Mus musculus with 8 samples.

Results

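Forebrain microvessels of mice aged 5 days (P5) and 10 days (P10) were compared directly on 2 of the 8 two-colour arrays of the series, the 2 arrays whose labels name this pairing, replicates 1 and 2. The whole series held 3 ages, P5, P10 and adult, all hybridised in pairs. Microvessels were freed from whole forebrain by Dounce homogenisation, density sedimentation and filtration that let particles below 70 µm through. On both arrays the P5 RNA carried Cy5 and the P10 RNA carried Cy3, with 100 ng of total RNA labelled. The animals were untreated as far as the labels say, and strain, sex, number and pooling of animals are not given. Whether the replicates came from separate animals is not stated either, so p-values reflect the spread of 2 arrays alone, and this spread may be technical. A ratio above 0 on the log2 scale means more signal at P5. Because the dyes were not exchanged for this pair, age and dye cannot be told apart within it; the dye term of a probe, read from the P10 and adult pair that was hybridised in both dye orientations on the same slides, is given where it exceeded 0.5 on either slide, and named genes whose call was lost when it was subtracted are stated.

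In the days after birth, vessels sprout into the forebrain from the surface, branch and form a dense capillary bed. Endothelial cells, the lining cells of vessels, are guided in this by vascular endothelial growth factor (VEGF) and Notch signals, while pericytes and smooth muscle cells join the vessel wall. Brain endothelium also takes on the blood-brain barrier, with tight junctions, nutrient carriers and drug efflux pumps, under Wnt and beta-catenin signalling. The isolation is by size and density, so red blood cells, neuronal fragments and glia can travel with the vessels.

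Of the 22274 genes tested in limma, 3827 (17.2%) passed at a Benjamini-Hochberg adjusted p below 0.05. At P5, 2296 genes (10.3%) were higher and 1531 (6.87%) were lower. These shares belong beside every count of list or family members below. The smallest adjusted p-value was 0.0313, so every call lay between that value and the threshold, and adjusted p-values are otherwise given mainly for genes that did not pass. Of the called genes 60% were higher, and with median centring in place of loess, which moved the median ratio of all genes from 0.08 to 0.18, the share was 78.8%. Under median centring limma also used 1 variance for all genes (smallest limma adjusted p = 1.18e-52). Its calls therefore rest on another variance model as well as another centre. The smallest called difference was 0.61 on the log2 scale. At least a 2-fold difference on both arrays, a description with no test, was seen for 1284 genes (5.76%) higher at P5 and 435 (1.95%) lower. On the replicate 1 array alone the same size of difference was reached by 2886 genes in the higher and 797 in the lower direction, and on the replicate 2 array alone by 1647 and 629. In each channel of the pair 69.8% to 73.2% of spots other than controls (43020) exceeded background clearly by the scanner software's test, here called well above background. The number of arrays limits the precision.

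The 2 arrays did not have the same spread. The SD of the ratios was 0.84 on the replicate 1 array and 0.61 on the replicate 2 array, and across genes, which are not independent replicates, the arrays correlated at r = 0.82. Among genes higher at P5 on both arrays, 978 were higher by over 1 log2 unit more on the replicate 1 array than on the replicate 2 array, and only 58 the other way round. The 978 had median ratios of 2.42 and 0.96. They seldom had a RefSeq symbol, 38.4% against 70.7% of all genes tested, and 193 of them were called. Of the 183 among them with several probes, 119 had another probe below 0.5. Among all genes tested, 3970 of the 4370 with several probes had at least 1 probe below 0.5, so this was not particular to the set. On the other arrays of the same slides, which reach P5 against P10 through the adult and share its RNA, the same genes had medians of 2.07 on slide 1 and 1.04 on slide 2. This set was picked after the ratios had been seen and is described without a test.

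**Figure D1:**
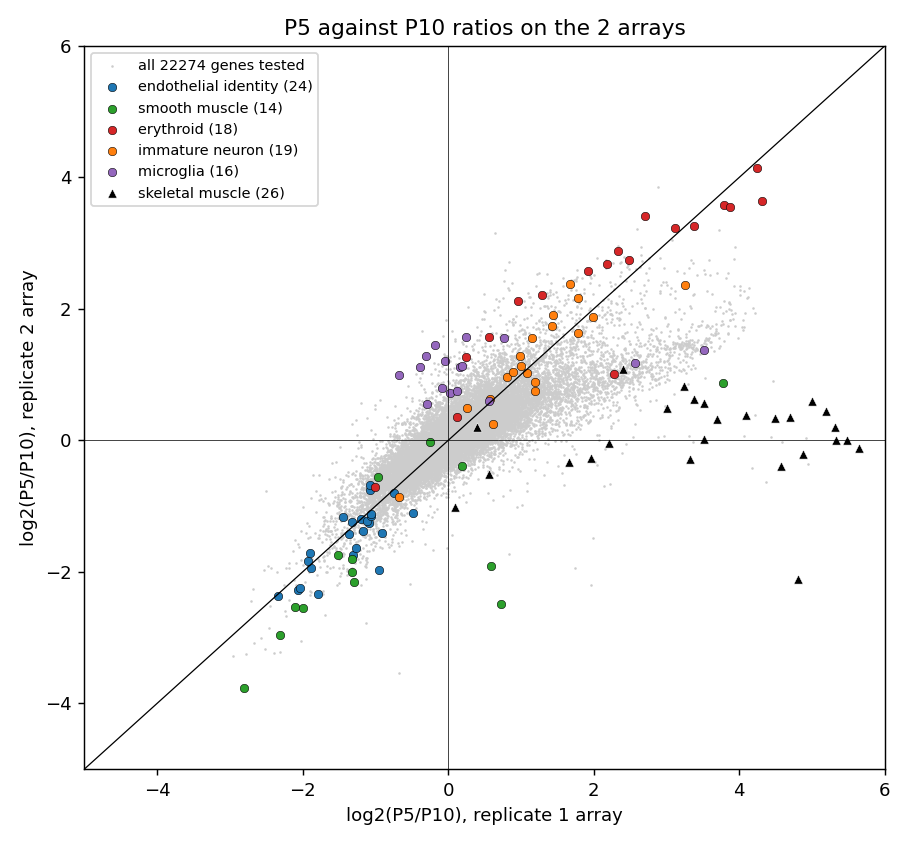
Each point is 1 gene, with its log2(P5/P10) ratio on the replicate 1 array (x axis) and the replicate 2 array (y axis), for all 22274 genes tested (grey), members of 5 gene lists (coloured circles) and skeletal muscle genes (black triangles), with a diagonal at equal ratios. Endothelial genes lie at the lower left, erythroid genes at the upper right, skeletal muscle genes far to the right (medians 3.61 and 0.11), and a grey arm below the diagonal holds the genes with the larger ratio on the replicate 1 array.

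Genes of skeletal muscle fibres were high in P5 of replicate 1 and not in replicate 2. Of 38 such genes, listed after this had been noticed, 26 were measured, with medians of 3.61 on the replicate 1 array and 0.11 on the replicate 2 array, and none was called. Myl1, a myosin light chain, had log2 signals of 14.62 at P5 and 8.97 at P10 in replicate 1 and of 6.44 and 6.56 in replicate 2. Ttn, the giant spring protein titin, had ratios of 5.48 and 0.01. Acta1, skeletal actin, ran in opposite directions, at 4.81 and -2.10. On the P5 and adult arrays the list's medians were 3.51 on slide 1 and 0.40 on slide 2, whereas P10 against adult gave 0.36 and 0.15. By these medians the P5 sample of replicate 1 was the high one on both arrays that held it. Some members were also raised in P10 against adult on slide 1, such as Tnnc2 (2.61, with 0.78 on slide 2) and Myl1 (1.84, with -0.25). Others were not, such as Actn2 (-0.12 on slide 1). The part of this signal in the results below was not tested, and values of each array are given for the lists and genes described most fully.

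**Figure D2:**
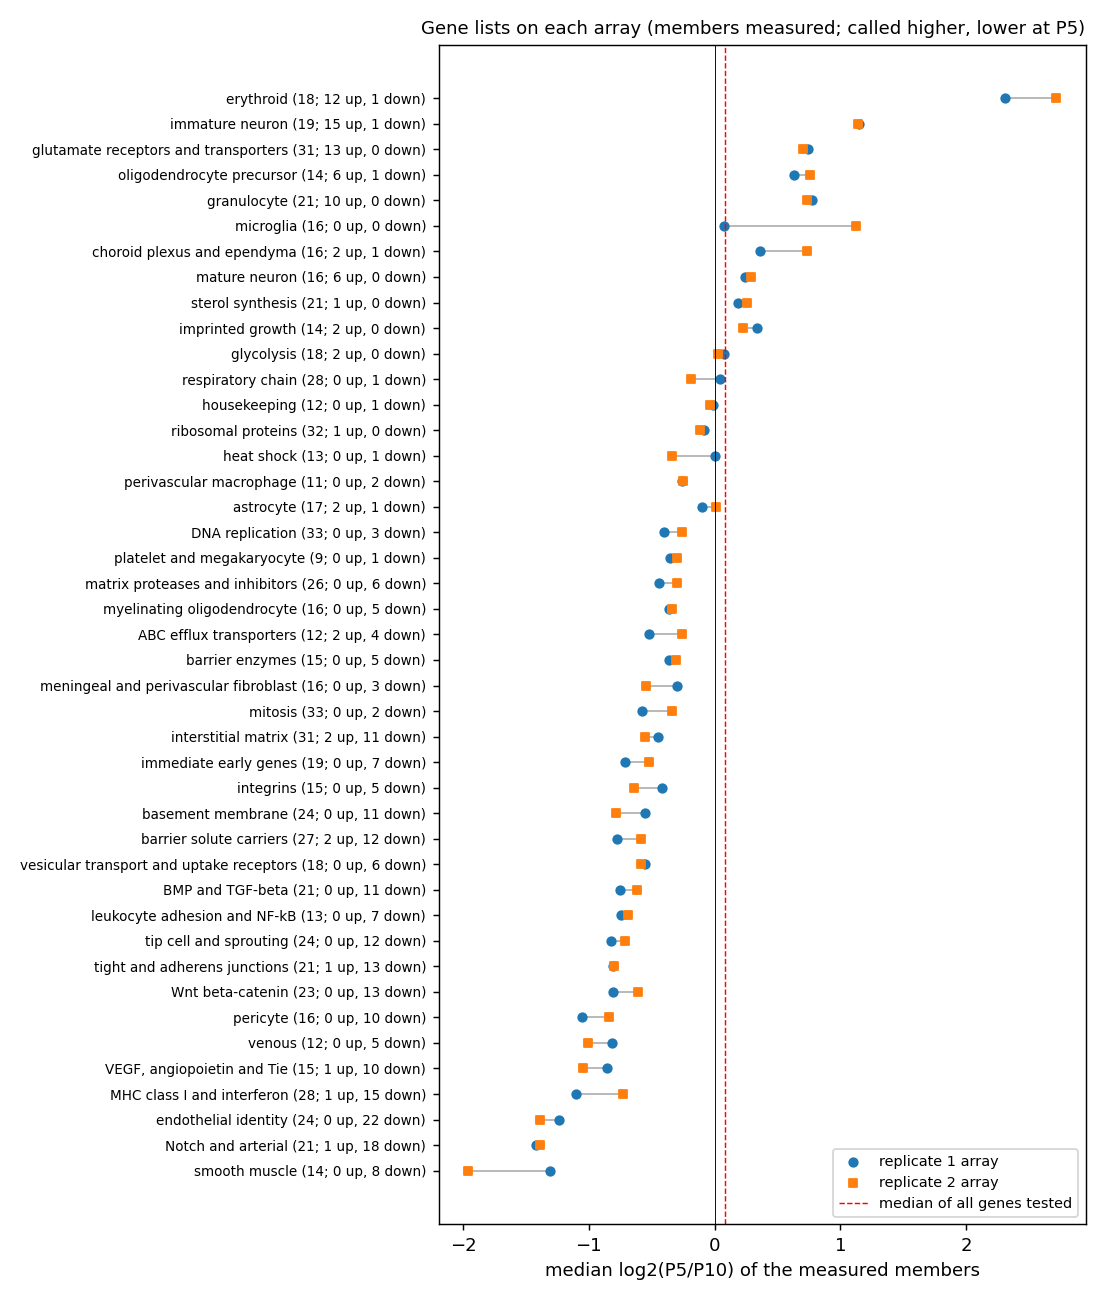
The x axis gives the median log2(P5/P10) of the measured members of each gene list on the replicate 1 array (circles) and on the replicate 2 array (squares), and the y axis names the lists with the members measured and called. Smooth muscle, Notch and arterial, and endothelial genes have medians below -1 on both arrays, erythroid genes lie at 2.31 and 2.71, and the microglia list has a wide gap between the arrays (0.08 and 1.13).

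Endothelial genes were lower at P5. Of 24 endothelial identity genes, all were measured, 22 were lower at P5 and 0 were higher, and the list median was -1.29 (-1.23 and -1.39 on the 2 arrays) against 0.08 for all genes. All 24 were below 0 on both arrays. The lowest was Ly6c1, a surface protein of brain endothelium, with log2 signals of 12.50 and 12.43 at P5 and of 14.85 and 14.79 at P10 in replicates 1 and 2. Both P5 values lay well below both P10 values, a ratio of -2.35 ± 0.12 (limma SE, n = 2 arrays, as for every error below), or 5.11-fold. Its second probe gave -2.38. Ptprb, the endothelial phosphatase that restrains the Tek receptor, was at -2.17 ± 0.13, and Sox17, a transcription factor of endothelium and arteries, at -2.14 ± 0.13. Mmrn2, an endothelial matrix glycoprotein, was at -2.06 ± 0.18. The junctional markers Pecam1 and Cdh5 were at -1.30 ± 0.14 and -1.17 ± 0.12. Vwf, the clotting factor stored in endothelial granules, was 1 of the 2 not called, since its arrays were apart at -0.95 and -1.97. The other was Egfl7, a secreted endothelial protein, at -0.49 and -1.10. In bulk RNA, fewer endothelial cells in the sample and less RNA of these genes per cell cannot be told apart.

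Arterial genes and Notch pathway genes held many of the lowest ratios in the data. Of 21 measured, 18 were lower at P5 and 1, Notch1, was higher, with a median of -1.41 (-1.42 and -1.38). Gja5, the connexin of arterial endothelium, had log2 signals of 8.37 and 8.32 at P5 and 11.32 and 11.60 at P10, a ratio of -3.12 ± 0.15. Its P5 and P10 signals were far apart in both replicates, but a second, dimmer probe read -0.20. Gja4, a further arterial connexin, was at -2.45 ± 0.16. Vegfc, a VEGF family growth factor, had log2 signals of 9.71 and 9.51 at P5 and 12.39 and 12.59 at P10, a ratio of -2.88 ± 0.16. Gkn3, a marker of brain arterial endothelium, was at -2.85 ± 0.21. Mgp, an inhibitor of calcification and of bone morphogenetic protein, was at -2.76 ± 0.26, with more difference on the replicate 2 array (-3.21) than on the replicate 1 array (-2.31).

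Genes at several steps of the Notch pathway were lower, beside an endothelial identity median of -1.29. Whether they differed from the endothelial list was not tested, and endothelial content and RNA per cell cannot be told apart here either. The receptor Notch3 was also counted in the pericyte list below, as its lowest member, beside a pericyte median of -0.89. The ligands Jag1 (-1.67 ± 0.19), Dll4 (-1.21) and Jag2 (-1.17), the receptors Notch4 (-1.41 ± 0.12) and Notch3 (-1.47 ± 0.21), and the target genes Hey1 (-1.49 ± 0.14), Hes1 (-1.37), Heyl (-1.22), Hey2 (-0.96) and Nrarp (-1.16) were all called lower. Notch1, the main endothelial Notch receptor, went the other way on its brighter probe, at 2.24 and 1.39 on the arrays. Its second probe read -0.99 and -0.91, in the direction of the rest of the pathway, and with the probes averaged the call was lost. Efnb2, an arterial ephrin, was not called, at -0.49. Bmx and Sema3g, a kinase and a semaphorin of arterial endothelium, were at -2.01 ± 0.19 and -2.09 ± 0.16, with -0.59 at the second Bmx probe.

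Smooth muscle genes had the lowest list median, -1.60. Of 14 measured, 8 were lower at P5 and 0 higher; the medians were -1.31 and -1.96 on the 2 arrays. Tagln, an actin-binding protein of the contractile apparatus, had the lowest ratio of all called genes with a symbol, with log2 signals of 10.92 and 10.85 at P5 and 13.72 and 14.61 at P10, a ratio of -3.28 ± 0.28, or 9.73-fold. The P5 signals were alike and the P10 signals were spread. Myl9, a regulatory myosin light chain, was at -2.64 ± 0.21, Myh11, smooth muscle myosin, at -2.31 ± 0.16, and Acta2, smooth muscle actin, at -1.72 ± 0.25. Des and Tpm2, which skeletal muscle also makes, had opposite signs on the arrays, at 0.59 and -1.91 for Des and 0.72 and -2.49 for Tpm2, and neither was called. Tpm1, also shared with skeletal muscle, read 3.77 and 0.88 at its brightest probe and as low as -1.44 at another, and was not called. The skeletal muscle medians given above, 3.61 and 0.11, belong beside these values.

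Pericyte genes were lower as well. Of 16 measured, 10 were lower at P5 and 0 higher, around a median of -0.89 (-1.05 and -0.84). Pdgfrb, the receptor through which endothelium recruits pericytes, had log2 signals of 11.16 and 10.87 at P5 and 12.24 and 12.31 at P10, a ratio of -1.26 ± 0.15. Higd1b, a pericyte-enriched mitochondrial gene, was at -1.36 ± 0.12, and Rgs4, a regulator of G protein signalling, at -1.27 ± 0.12. Atp13a5, a transport ATPase with high pericyte expression, was at -1.26 ± 0.20. Cspg4, which oligodendrocyte precursors also carry, was called lower at -0.79, although most other precursor genes called were higher. Kcnj8 and Abcc9, which together form the pericyte potassium channel, were at -0.92 and -0.85 and were not called. Rgs5 was not tested, because its spot was marked as an outlier on the replicate 1 array. Mcam, which is also an endothelial and smooth muscle adhesion molecule, read 2.34 and 0.86 and was not called.

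**Figure D3:**
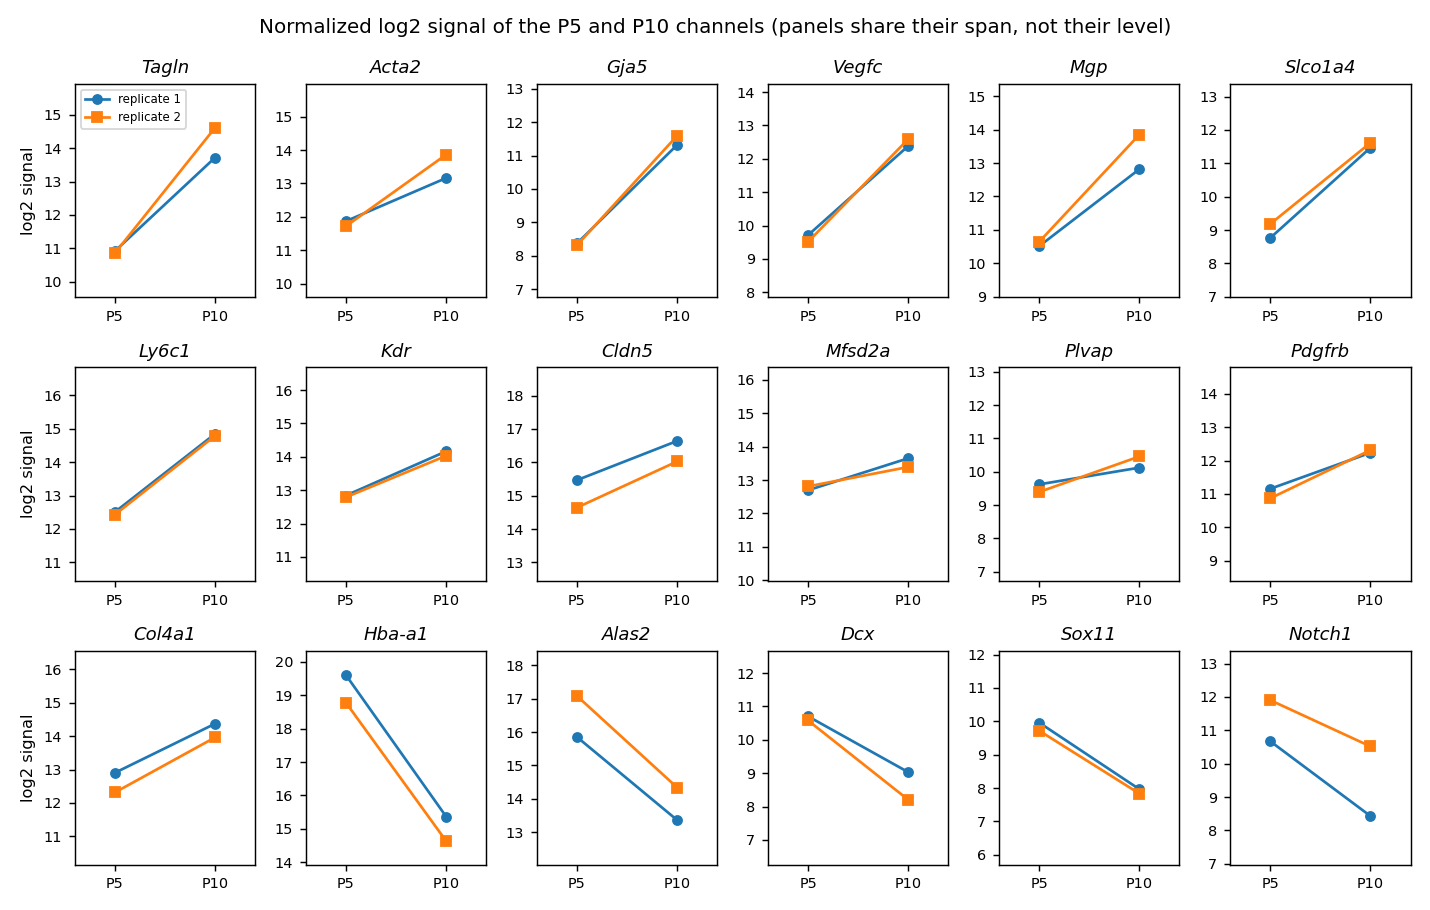
Each panel shows 1 gene, with the normalized log2 signal of its probe in the P5 and P10 channels on the y axis, circles for replicate 1 and squares for replicate 2, each line joining the channels of 1 array and all panels spanning the same number of log2 units. Vessel wall genes rise from P5 to P10 in both replicates, among them Mfsd2a and Plvap, which were not called. Hba-a1, Alas2, Dcx and Sox11 fall, and the brighter probe of Notch1 falls too.

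VEGF, angiopoietin and Tie genes were mostly lower at P5. Of 15 measured, 10 were lower and 1 higher, with a median of -0.95 (-0.85 and -1.05). The VEGF receptors Flt1 and Kdr were at -1.80 ± 0.13 and -1.28 ± 0.12. Kdr, the main signalling receptor for VEGF, had log2 signals of 12.84 and 12.79 at P5 and 14.17 and 14.03 at P10, without overlap. A second probe, with a P5 signal of 12.80 in replicate 1, had opposite signs on the arrays. It read 0.13 and -0.31, with a mean of -0.09. Tek, the angiopoietin receptor, was at -1.88 ± 0.12 and its ligand Angpt2 at -1.31 ± 0.12. Vegfa, the ligand made mainly by neural cells and glia, was higher at P5 at 1.36 ± 0.23 (1.74 and 0.97), and its second probe read 0.53. That call was lost with the probes averaged and with the dye term subtracted.

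Tip cell genes, which mark the leading cells of sprouts, were not higher at P5. Of 24 measured, 12 were lower and none higher, with a median of -0.77 (-0.82 and -0.71). Igfbp3, a growth factor binding protein, was at -1.74 ± 0.12, Col4a1, a basement membrane collagen, at -1.56 ± 0.13, and Unc5b, a netrin receptor of tip cells, at -1.38 ± 0.12. Esm1, a secreted tip cell proteoglycan, was lower at P5 at -1.01 ± 0.15. Apln, the peptide of sprouting vessels, differed between the arrays, at -1.49 and -0.10, and was not called, whereas its receptor Aplnr was lower at -0.82 ± 0.12. Several of these genes are also made by other endothelium, and the list median lay above that of the endothelial identity genes.

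Of 12 venous genes, 5 were lower at P5 and 0 higher, around a median of -0.91. Icam1, a leukocyte adhesion molecule, was at -1.45 ± 0.17, and Ephb4, the venous partner of Efnb2, at -1.07. Nr2f2, the transcription factor that specifies veins, was at -0.67 and was not called. Whether arterial and venous genes differed from each other was not tested.

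Wnt pathway genes of the barrier were lower at P5 in 13 of 23, with none higher and a median of -0.80 (-0.80 and -0.61). The receptor complex that reads neural Wnt7 ligands was represented by Adgra2 (-1.45 ± 0.21) and its partner Reck (-0.90 ± 0.14), with -0.25 at the second Reck probe. Fzd6, a Frizzled receptor, was at -1.28 ± 0.13 and Foxq1, a transcription factor of brain endothelium, at -1.52 ± 0.16. Axin2 (-0.74) and Nkd1 (-1.21), feedback targets of the pathway, were called lower too. Lef1, a nuclear partner of beta-catenin that is high in young brain endothelium, had log2 signals of 9.96 and 9.57 at P5 and 10.45 and 9.99 at P10. Its ratio of -0.46 ± 0.12 did not pass (limma adjusted p = 0.0711). The ligands Wnt7a and Wnt7b, made by neural cells, were at 0.41 and -0.03 and were not called.

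Among bone morphogenetic protein and TGF-beta genes, 11 of 21 were lower and none higher, with a median of -0.72. Id1, a direct target of this signalling in endothelium, had log2 signals of 10.62 and 10.59 at P5 and 12.74 and 12.72 at P10, a ratio of -2.12 ± 0.12 that was nearly equal on both arrays. The inhibitor Smad6 was at -1.69 ± 0.20, the receptors Tgfbr2 and Acvrl1 at -1.43 ± 0.13 and -1.34 ± 0.12, and the co-receptor Eng at -1.20. Bmp4, a ligand, was at 1.26 and 0.50 and was not called.

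**Figure D4:**
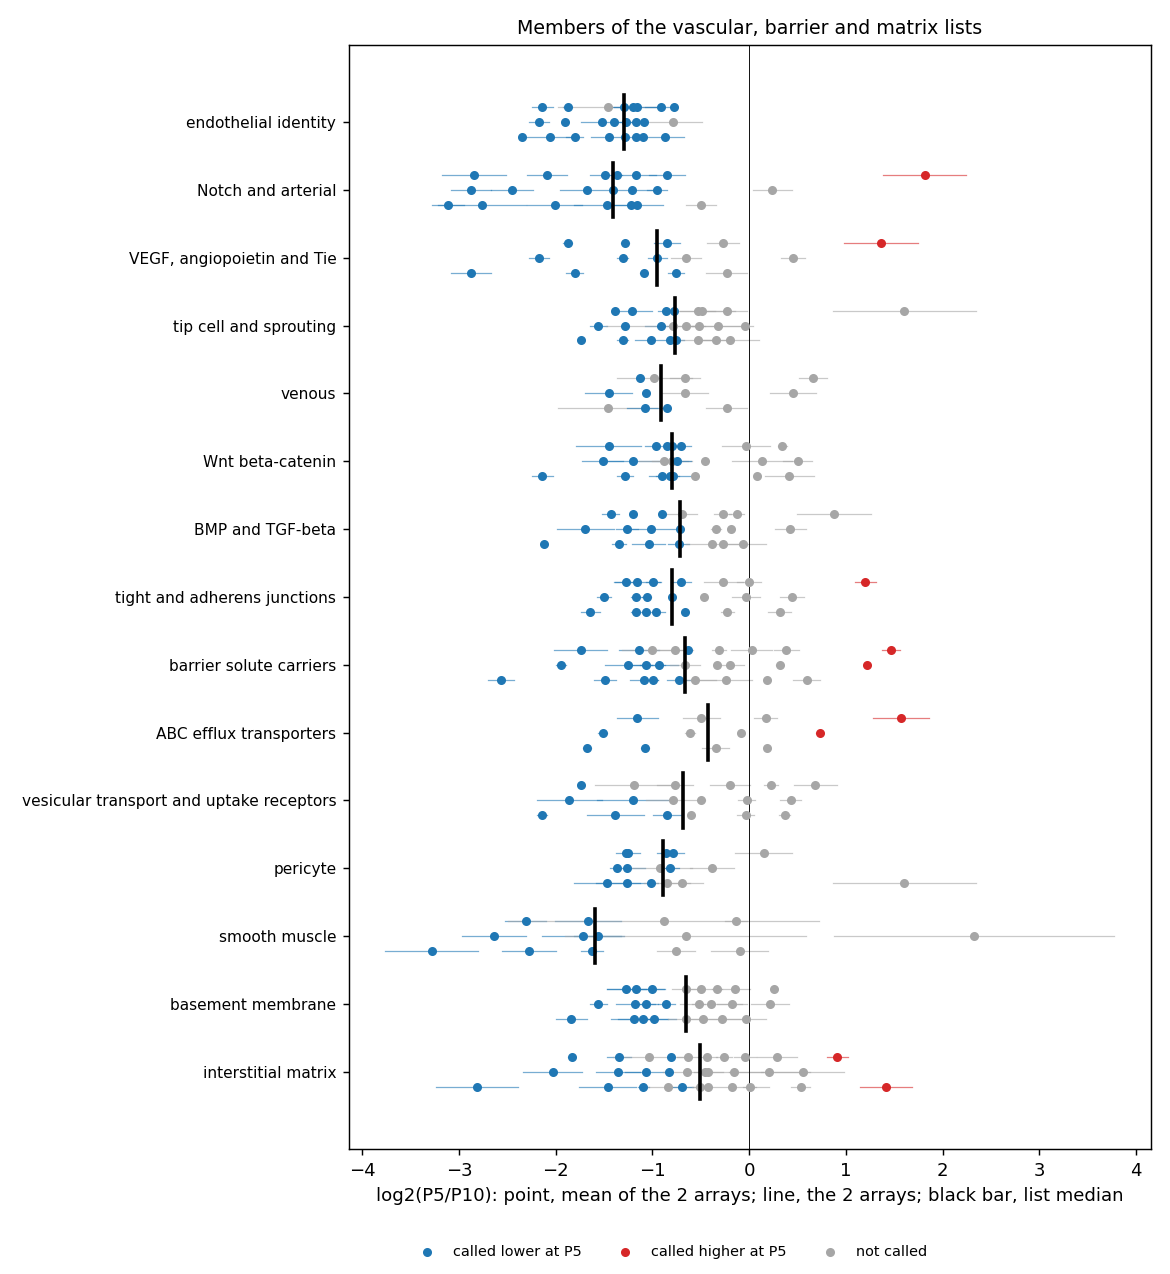
Each point is a member of the list named on the y axis, placed at its mean log2(P5/P10) on the x axis, with a line joining its values on the 2 arrays, a black bar at the list median, and blue for called lower at P5, red for called higher and grey for not called. In the arterial, VEGF, junction, carrier, efflux and interstitial matrix lists 1 or 2 members each lie on the higher side as calls.

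Tight and adherens junction genes were lower in 13 of 21, with medians of -0.80 on both arrays. The endothelial identity median, -1.29, was lower than that of this list. It was also lower than the medians of the Wnt, carrier, efflux, barrier enzyme and vesicular transport lists. Whether any of these lists differed from the endothelial list was not tested. For all of them, endothelial content and RNA per cell cannot be told apart. Occludin (Ocln) was at -1.64 ± 0.13, with -1.21 at a second probe. Lsr, the lipoprotein receptor that sits at tricellular junctions, was at -1.50 ± 0.13. Cldn5, the main claudin of brain endothelium, had log2 signals of 15.47 and 14.64 at P5 and 16.64 and 16.03 at P10, a ratio of -1.28 ± 0.13. Here the lower P10 value exceeded the higher P5 value. The scaffold Tjp1 was at -0.92 and -1.07 on the arrays and beta-catenin (Ctnnb1) had a mean of -0.70, both lower. Cgn, the epithelial junction protein cingulin, was the only member called higher, with log2 signals of 9.37 and 9.28 at P5 and 8.28 and 7.97 at P10, while its relative Cgnl1 was lower at -0.96. Jam2, Jam3, Cldn1 and Cldn12 were between -0.46 and 0.00 and were not called.

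Solute carriers of the barrier were lower in 12 of 27 and higher in 2, with a median of -0.67 (-0.77 and -0.58). Slco1a4, an organic anion carrier of brain endothelium, had log2 signals of 8.76 and 9.18 at P5 and 11.47 and 11.61 at P10, a ratio of -2.57 ± 0.14, or 5.94-fold. The other low values were those of Slc52a3, a riboflavin carrier (-1.95 ± 0.12), Slc6a6, the taurine carrier (-1.74 ± 0.19), and Slc2a1, the glucose carrier GLUT1 (-1.49 ± 0.13). The amino acid carrier Slc1a4 and the fatty acid carrier Slc27a1 were higher, at 1.46 and 1.22. The dye terms of Slc1a4 were 0.46 and 0.51, and its ratio was 0.97 with the dye term subtracted. Slc7a5, the large amino acid carrier, and Slc16a1, the monocarboxylate carrier, were at -0.24 and 0.18 and were not called. Mfsd2a, which carries omega-3 lipids and restrains vesicle transport, just missed the threshold, at -0.77 ± 0.15 (-0.96 and -0.58, limma adjusted p = 0.0508).

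Among 12 ABC efflux transporters, 4 were lower and 2 higher. Abcb1a, the main P-glycoprotein gene of brain endothelium, had log2 signals of 9.83 and 10.06 at P5 and 11.46 and 11.78 at P10, a ratio of -1.68 ± 0.12. Abcc4 (-1.52 ± 0.12), Abcg2 (-1.16) and Abcb1b (-1.08) were also lower. Abcc5 and Abca2, which neural cells also express, were higher, at 1.57 ± 0.19 (1.86 and 1.28 on the arrays) and 0.73, with Abcc5 probes between 0.66 and 1.57 and 0.17 at the second Abca2 probe. Of 15 barrier enzymes 5 were lower and none higher, among them the peptidase Enpep (-1.37) and the amine oxidases Maob (-1.12) and Maoa (-0.90).

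Caveolar genes were lower at P5. Cav2 and Cav1, coat proteins of caveolae, were at -2.15 ± 0.12 and -1.20 ± 0.23, and their partners Cavin1, Cavin2 and Cavin3 at -1.86 ± 0.21, -1.73 ± 0.12 and -1.39. With Tfrc, the transferrin receptor, at -0.85 ± 0.14, these made up the 6 of 18 vesicular transport genes called lower, and none was higher. Plvap, the diaphragm protein of leaky endothelium, had log2 signals of 9.62 and 9.39 at P5 and 10.12 and 10.46 at P10. Its ratio of -0.78 ± 0.19 did not pass (limma adjusted p = 0.062).

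Basement membrane genes were lower in 11 of 24, with none higher and a median of -0.66 (-0.55 and -0.79). Col18a1, the source of endostatin, was at -1.84 ± 0.15, Col4a1 at -1.56 and Col4a2 at -0.99 ± 0.14, and the laminins Lamb2, Lama2, Lama1, Lama5, Lamc1 and Lama4 were between -1.19 and -0.86. Of 31 interstitial matrix genes, 24 were below 0, with a median of -0.51 (-0.45 and -0.56). As calls, 11 were lower and 2 higher. Fbln5, an elastic fibre protein, was at -2.81 ± 0.25, with -0.89 at a second probe, Fbln2 at -2.03, Fn1, fibronectin, at -1.84 ± 0.12, and elastin (Eln) at -1.46. Col3a1 was lower at -1.07 ± 0.16, while Col1a1, a major fibrillar collagen, was at -0.43 and was not called. The 2 higher genes, Vcan (1.42 ± 0.18, from 1.69 and 1.15) and Tnc (0.91), encode matrix proteins that neural progenitors and glia also make. Integrins were lower in 5 of 15, led by Itga1 (-1.61, with -0.34 at its second probe) and Itga5 (-1.21). Matrix proteases and their inhibitors were lower in 6 of 26, led by Adamts1 (-1.20).

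Other genes among the 15 lowest were Degs2, a sphingolipid desaturase (-2.79 ± 0.16), Dhh, the desert hedgehog ligand (-2.65 ± 0.16), Aoc3, a vascular amine oxidase (-2.54 ± 0.29), Tm4sf1, an endothelial membrane protein (-2.48 ± 0.12), and Syt15, a synaptotagmin (-2.42 ± 0.15, with -1.40 at its second probe). All of these were lower on both arrays.

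Division genes were largely not called. Of 33 mitosis genes 2, Anln and Kif23, were lower at -0.86 and -0.79 and none was higher, and of 33 DNA replication genes 3, Mcm2, Fen1 and Rrm1, were lower and none higher. The list medians were -0.46 and -0.34, and 6.87% of all genes tested were called lower. Mki67, the marker of cycling cells, had log2 signals of 12.48 and 12.35 at P5 and 12.33 and 12.02 at P10, a ratio of 0.24 ± 0.13 (limma adjusted p = 0.233). Top2a, the topoisomerase of dividing cells, was at -1.19 and -0.57 and was not called (limma adjusted p = 0.058). The 3 replication calls and Hprt, the only housekeeping gene called (-0.71), were lost with the dye term subtracted.

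Genes of antigen presentation and the interferon response were lower at P5, with 15 of 28 lower, 1 higher and a median of -0.99 (-1.10 and -0.73). Gbp2 and Gbp3, interferon-induced GTPases, were at -1.71 ± 0.17 and -1.51, and Bst2, the antiviral tetherin, at -1.46. H2-T23, a non-classical class I gene, had log2 signals of 11.12 and 11.29 at P5 and 12.79 and 12.72 at P10, a ratio of -1.55 ± 0.13. The classical class I genes H2-D1 and H2-K1 were at -1.18 and -1.02 and the light chain B2m at -0.95. Rsad2, the antiviral protein viperin, ran against the list, with log2 signals of 12.89 and 13.98 at P5 and 10.30 and 10.76 at P10, a ratio of 2.91 ± 0.20. Isg15 had opposite signs on the arrays, at -0.55 and 0.82.

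Upstream sequences are shown for 3 of the interferon genes, because each carries 2 copies of a shared element, and for Hbb-bs, a beta-globin gene. In the 250 bases before the RefSeq gene start (build GRCm38.p6), the core of the interferon-stimulated response element, GAAA followed after any 2 bases by GAAA, on either strand and with overlapping matches counted, was present in 7 of the 14 called-lower genes of this list that had a sequence (15 were called), namely H2-T23, B2m, Ifit1, Ifit3, Gbp2, Gbp3 and Bst2. It was present in 3.46% of the 27025 genes with such a sequence. Rsad2, the gene that was higher, and the members not called were not part of this count. The list was chosen as interferon and antigen presentation genes, so the count does not bear on the direction of change. Capitals mark the matches, which are a description of letters and not of bound sites, and the sequences run 5′ to 3′ on the gene's strand.
Ifit1 (chr19:34640639-34640888, plus strand): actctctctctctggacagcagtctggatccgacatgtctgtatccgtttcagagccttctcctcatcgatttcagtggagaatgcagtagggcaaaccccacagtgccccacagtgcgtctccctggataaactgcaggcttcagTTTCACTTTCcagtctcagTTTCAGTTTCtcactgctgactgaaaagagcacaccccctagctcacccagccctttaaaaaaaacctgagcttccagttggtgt
Gbp3 (chr3:142559794-142560043, plus strand): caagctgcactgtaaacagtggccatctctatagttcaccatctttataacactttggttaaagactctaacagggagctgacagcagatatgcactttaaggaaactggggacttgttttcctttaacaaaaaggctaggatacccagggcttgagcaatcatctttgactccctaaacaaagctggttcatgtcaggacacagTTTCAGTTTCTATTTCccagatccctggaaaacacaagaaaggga
Bst2 (chr8:71537473-71537722, minus strand): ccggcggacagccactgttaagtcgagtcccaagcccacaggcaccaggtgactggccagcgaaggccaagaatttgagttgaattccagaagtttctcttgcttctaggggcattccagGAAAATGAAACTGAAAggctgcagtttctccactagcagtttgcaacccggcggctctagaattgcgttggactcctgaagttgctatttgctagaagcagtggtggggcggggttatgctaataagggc
Hbb-bs (chr7:103827929-103828178, minus strand): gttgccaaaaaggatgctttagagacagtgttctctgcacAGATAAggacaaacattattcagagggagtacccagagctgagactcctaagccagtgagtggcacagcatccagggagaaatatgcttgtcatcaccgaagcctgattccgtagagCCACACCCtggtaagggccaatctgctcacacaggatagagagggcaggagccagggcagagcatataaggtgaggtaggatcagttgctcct
In Ifit1 the matches began 104 and 85 bases before the start, in Gbp3 45 and 39 and in Bst2 130 and 124, the last pairs overlapping. Gbp3 had a second annotated start whose upstream sequence held no match. In Hbb-bs the capitals mark AGATAA, which GATA factors recognise, and CCACACCC, which erythroid Klf factors recognise, at 210 and 93 bases before the start. AGATAA was present in 3 of the 7 called-higher erythroid genes with a sequence (Hbb-bs, Alas2 and Rhd; 12 were called) against 11.4% of all genes, and CCACACCC in 1 of the 7 against 3.68%. Of the 5 called-lower smooth muscle genes with a sequence (8 were called), 1, Myl9, held a CArG box, the element read by serum response factor, against 1.62% of all genes. In these lists, chosen by cell type, other members were not counted either, so the shares do not bear on direction.

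Adhesion and NF-kB genes were lower in 7 of 13. The chemokine Cxcl12 was at -1.83 ± 0.16, with -0.61 at its second probe and a dye term of 0.54 on slide 1. The inhibitors Tnfaip3 and Nfkbia were at -1.07 and -1.01. Of 19 immediate early genes, which also respond to tissue handling, 7 were lower and none higher. Klf2, the flow-induced factor of endothelium, was at -1.91 ± 0.17 and Klf4 at -1.42, while Fos read -1.01 and 0.48 on the 2 arrays and was not called. Of 13 heat shock genes, 1, Dnajb1, was called, lower at -0.65.

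Red blood cell genes were the highest in the data. Of 18 measured, 12 were higher at P5 and 1 lower, with a median of 2.52 (2.31 and 2.71). Hba-a1, an alpha-globin gene, had log2 signals of 19.61 and 18.78 at P5 and 15.36 and 14.63 at P10, a ratio of 4.19 ± 0.12. These P5 signals lay at the top of the scale, where the highest Cy5 signals of the arrays were 19.55 and 19.57 before normalization, and the dye terms of this probe were 1.02 and 0.93. The ratio was 3.22 with the dye term subtracted and 2.80 with all 8 arrays in the fit. Probes of near-identical globin genes may share target, so these genes are best read together. Hbb-bs, a beta-globin gene with dye terms of only 0.04 and 0.01, was at 3.32 ± 0.12, with log2 signals of 18.02 and 18.16 at P5 and 14.64 and 14.90 at P10. Away from globins, Slc25a37, the mitochondrial iron importer, was at 3.18 ± 0.12, Fech, the last enzyme of haem synthesis, at 3.06 ± 0.22, and Alas2, its first enzyme in red cells, at 2.62 ± 0.14. All 12 calls of higher genes were kept with the dye term subtracted. Tfrc, which brain endothelium also makes, was the only erythroid list member called lower at P5, at -0.85 ± 0.14, and this call was lost under that setting. Klf1, the erythroid transcription factor, was at 0.24 and was not called.

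Among 21 granulocyte genes 10 were higher and 0 lower, with a median of 0.62. The stefins Stfa2l1 (1.67 ± 0.25), Cstdc5 (1.63) and Stfa1 (1.62), whose probes may share target, and S100a8 (2.07 and 1.14 on the arrays), a calcium-binding protein of neutrophils, led the list, each with a larger ratio on the replicate 1 array. Of 9 platelet genes, 1, the chemokine Ppbp, was lower. It was not well above background at P5 on either array, so it was at least 1.96-fold lower there, a bound set by the lowest signals that were well above background (limma adjusted p = 0.0341, with mean log2 signals taken over both arrays).

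Microglial genes split between the replicates. None of 16 was called, and the list median was 0.08 on the replicate 1 array and 1.13 on the replicate 2 array. P2ry12, a receptor of resting microglia, was at -0.30 and 1.29, C1qb, a complement component, at -0.38 and 1.12, and Csf1r, the growth factor receptor of microglia, at 0.16 and 1.12. Aif1, a calcium-binding protein of microglia, was at 0.12 and 0.76. The same split was present on the P5 and adult arrays, with list medians of 0.06 and 1.07, and not in P10 against adult, at 0.00 and 0.16. Siglech (3.52 and 1.38) and Itgam (2.57 and 1.18) ran the opposite way, like the genes of the grey arm in the plot of the 2 arrays. Perivascular macrophage genes were lower in 2 of 11, Cbr2 (-1.42) and F13a1, and none was higher, beside 6.87% lower among all genes tested.

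**Figure D5:**
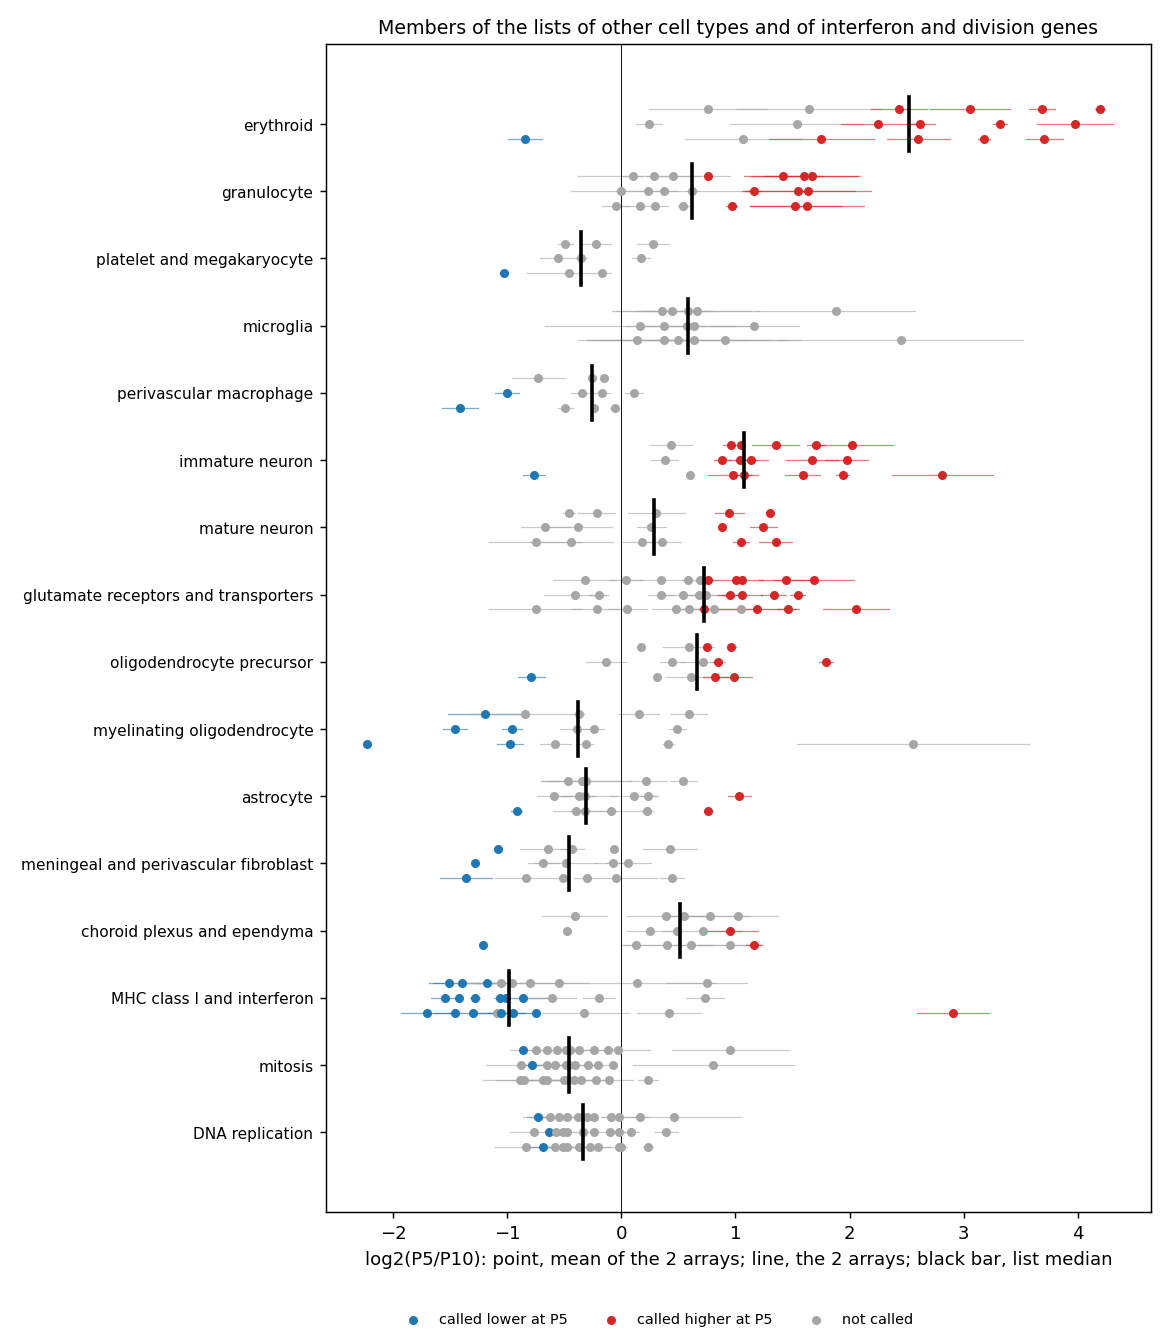
Each point is a member of the list named on the y axis, placed at its mean log2(P5/P10) on the x axis, with a line joining its values on the 2 arrays, a black bar at the list median, and red for called higher at P5, blue for called lower and grey for not called. Erythroid (12 of 18) and immature neuron (15 of 19) lists are mostly red and 15 of 28 interferon list members are blue, while all 16 microglia list members are grey.

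Genes of immature neurons were higher at P5 in 15 of 19, with 1 lower and a median of 1.07 (1.15 and 1.14). Dcx, the microtubule protein of migrating neurons, had log2 signals of 10.70 and 10.58 at P5 and 9.03 and 8.20 at P10, a ratio of 2.03 ± 0.22, with its other probes at 0.55 and 1.45. Igfbpl1, a gene of newborn neurons, was at 2.81 ± 0.26, Cd24a, a surface glycoprotein, at 1.97 ± 0.16, and Sox11, a neuronal differentiation factor, at 1.94 ± 0.12. The interneuron factors Dlx1, Dlx2 and Dlx5 were at 1.71, 1.35 and 0.98. Nrep was the only gene of the list lower at P5, at -0.76.

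Among 16 mature neuron genes 6 were higher and 0 lower, with a median of 0.28. The GABA-synthesising enzymes Gad1 and Gad2 were at 1.31 and 1.24 and the kinase subunit Camk2b at 1.35. Of the 16 members, 10 were above 0 and 6 were below 0, and none of the latter was called. Slc17a7, Nefh and Camk2a, at -0.75, -0.67 and -0.46, were among those below 0. Of 31 glutamate receptor and transporter genes, 13 were higher and none lower, with a median of 0.73. Gria2, the subunit that limits calcium entry through AMPA receptors, was at 2.05 ± 0.19, with 0.73 at its second probe, Grm5, a metabotropic receptor, at 1.69, and Gria4 at 1.55.

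Calls among oligodendrocyte lineage genes differed in direction between precursor and myelin genes. Of 14 precursor genes 6 were higher and 1 lower, with a median of 0.66, led by Ptprz1, a phosphatase receptor (1.79 ± 0.12), Bcan, the proteoglycan brevican (0.99), and Lhfpl3 (0.96). Of 16 myelinating oligodendrocyte genes 5 were lower and 0 higher, with a median of -0.38. Mal, a myelin membrane protein, had log2 signals of 9.76 and 9.87 at P5 and 12.02 and 12.07 at P10, a ratio of -2.23 ± 0.12, and Gsn, Mobp, Tspan2 and Mag were lower too, at -1.46, -1.20, -0.98 and -0.96. The brightest probe of Mbp, myelin basic protein, read 0.59 and was not called, while the other probes read 0.27 and -1.19. Ermn, a cytoskeletal protein of myelinating cells, had the highest ratios of the myelin list, 3.57 and 1.54, and was not called (limma adjusted p = 0.0528, with 0.39 at another probe). Of the 16 members, 5 were above 0. Whether the precursor and myelin lists differed was not tested.

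Astrocyte genes showed no common direction. Of 17 measured, 2, Aldh1l1 (1.03) and Slc1a3 (0.76), were higher, 1, Ntsr2 (-0.92), was lower, and Aqp4, the water channel of vessel-facing endfeet, and Gfap were at -0.59 and -0.35 and were not called. Fibroblast genes were lower in 3 of 16, Lum (-1.36), Foxc1 (-1.29) and Foxd1 (-1.08), with none higher. Of 16 choroid plexus and ependyma genes 2 were higher and 1 lower, beside 10.3% and 6.87% of all genes tested. Ttr, the thyroxine carrier of choroid plexus, was at 1.17 with dye terms of 1.05 and 0.45, and its call was lost with the dye term subtracted.

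Of 14 imprinted growth genes 2 were higher at P5, Meg3, a long non-coding RNA (2.25 ± 0.32, from 2.82 and 1.68, with 2.12 and 2.29 at its other probes), and Nnat (1.27 and 0.74 on the arrays), and lower in none. Igf2, the imprinted growth factor, was at -0.05 and was not called. Genes of basic metabolism were close to the median of all genes. Glycolysis, respiratory chain, sterol synthesis, ribosomal protein and housekeeping lists had medians between -0.09 and 0.23, and 6 of their genes were called in all. Pfkp, a phosphofructokinase isoform, was the largest of these, at 1.52 and 1.49 on the arrays.

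Among the 15 highest genes, 6 differed by over 1.5 log2 units between the arrays, all higher on the replicate 1 array: Dcc, Slc10a1, Rhox8, Elk1, Glrx2 and Gcm1. Elk1, a transcription factor, had log2 signals of 19.27 and 18.34 at P5 and 15.08 and 16.33 at P10, ratios of 4.19 and 2.01, with dye terms of 0.72 and 0.63 and 0.07 at its second probe. Glrx2, a mitochondrial glutaredoxin, was at 4.22 and 1.94, with dye terms of 0.92 and 0.69 and -0.29 at its second probe, and Slc10a1, a bile acid carrier of liver, at 4.12 and 2.18, with dye terms of 0.93 and 0.80. These 3 calls were lost with the dye term subtracted. Zdhhc22, a palmitoyltransferase, was at 3.46 ± 0.18, with log2 signals of 14.85 and 16.66 at P5 and 11.13 and 13.45 at P10, and Unc93a2 was at 3.45 ± 0.29. In both, the signals of replicate 2 were higher at both ages.

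The calls rest on 1 residual degree of freedom. No gene passed with normexp background correction fitted on all spots as recorded (smallest limma adjusted p = 0.106, 1986 genes below an unadjusted p of 0.05) or with the deposited processed signals (smallest adjusted p = 0.0572, 9640 genes). With the dye term subtracted, 2500 of the 3795 called genes that could be tested kept their call and none changed sign, and with all 8 arrays in the fit 3702 of 3780 were also called in the same direction. Besides the losses given above, the calls of Aplnr, Cav1, Cspg4, Cstdc5, Dlx5, Dnajb1, Ifit1, Nrep, Slc1a3, Stfa1 and Tnfaip3 were lost with the dye term subtracted, and those of Lama2 and Nkd1 could not be tested.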

How the data were processed

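Total RNA was labelled and hybridised to Agilent 4x44K two-colour arrays, and each of the 8 deposited files is Agilent Feature Extraction output of 1 array (version 10.5.1.1 per the file headers, 12.6 per the submitters' processing notes). Per the file headers, the columns used hold each spot's median signal and local background, as linear intensity. The age and dye of each channel follow the labels; names within the deposit give the ages in the other order on slide 1, but the 2 arrays correlated positively (r = 0.82) and the erythroid median on slide 1 reached through the adult had the same sign (2.12). From the deposited intensity values, ratios were computed in limma 3.58.1 (R 4.3.3): normexp background correction (offset 50), loess within each array (span 0.3, control and outlier spots at weight 0), and averaging of a probe's spots. On the replicate 2 array, 7 spots whose recorded background exceeded their signal by over 100 (lowest net signal -273125.5) were given the median background and left out. Of 39429 probes, 27427 carried an accession with a symbol in RefSeq (GRCm38.p6, used for names and upstream sequences only, since the design names another build). A probe entered when it was well above background on both arrays in at least 1 age, and the brightest probe stood for a gene; 116 of 883 called genes with several probes had a further probe of opposite sign. Each gene's 2 ratios were tested against 0 with moderated variance (2.708 prior degrees of freedom) and Benjamini-Hochberg adjustment over all 22274 genes. Replicate number equals slide, and each ratio is formed within 1 array, so the pairing is built in. Channel levels are log2 signals after loess and limma's Aquantile scaling between the 2 arrays.

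In data simulated for P5 against P10 on 22274 genes, 69% of 100 genes changed 2-fold and 100% of 100 changed 4-fold were called, and 24 unchanged genes. Both simulated arrays had the same spread, drawn from the moderated errors. Dye terms of single probes and genes with a larger ratio on the replicate 1 array were not simulated. The simulation therefore does not give the error rate of the real calls. The comparison, the gene lists and the named genes were chosen with earlier results of these data known. Named are the 15 highest and 15 lowest called genes with a symbol, up to 4 called members of each list in each direction and 30 genes whatever their values. Other list members, and the skeletal muscle and uneven sets, were named after their values were seen. Alternatives changed the background correction, normalization, signal column, dim-probe filter, probe rule, variance model, dye term, arrays and pairing.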

Additional observations from a re-analysis of the deposited data

How the results depend on the processing

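None of the 181 named genes was reversed while called under the alternatives that were run; the medians of 4 lists (glycolysis, respiratory chain, housekeeping and astrocyte) each changed sign under a single alternative. With normexp fitted on all spots as recorded, 0 genes were called higher and 0 lower, and 347 and 134 differed at least 2-fold on both arrays; with the deposited processed signals the counts were 0 and 0, and 2021 and 1341. With median centring 4877 genes were called higher, and 264 were at least 2-fold lower on both arrays. In that fit the prior degrees of freedom were infinite (2.708 in the main fit), so all genes shared 1 variance. All 8 arrays with the replicate block gave 4984 higher and 3958 lower, the path through the adult gave 3738 higher, and separate channels without the replicate block gave 1388 and 771. Leaving out a replicate leaves no residual degree of freedom and so no test; the genes at least 2-fold higher on the remaining array numbered 1647 to 2886, and those lower 629 to 797. Both counts stayed within 1.5 times without background correction, with other dim-probe filters, averaged probes, a variance trend or the dye term subtracted. Leaving out probes with a dye term over 0.5 (added after seeing the data) also kept them within that range. The cause was not tested for any of these. For the named genes, calls ended for 171 under each setting with 0 calls, for 38 without the block, for 25 with the dye term subtracted and for at most 15 under any other. Precision rests on 2 arrays, and probes near background can miss differences.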

Other observations

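Gene families, defined by their symbols, were counted after the results were seen, and are given without a test of the family. Some members, such as Gja5, Sox17, Cldn5 and Gbp2, also belong to the lists above and are counted here again. Among all genes tested, 10.3% were higher and 6.87% lower. Families of axon guidance receptors and ligands had calls in both directions, and most of their members were not called. Of 19 semaphorins measured, 7 were higher and 1, the arterial Sema3g, was lower (-2.09). Of 9 plexins, the semaphorin receptors, 5 were higher and 0 lower, led by Plxna3 (2.59 ± 0.14). Of 14 Eph receptors, 5 were higher, led by Ephb6 (2.61 ± 0.14), and 2 were lower, the venous receptor Ephb4 (-1.07 ± 0.12) and Epha2 (-1.06 ± 0.13). Slit1, a repellent guidance cue made by neurons, was higher (2.05 ± 0.15), and Robo2, its receptor on axons, was higher too (1.13), while Robo4, the endothelial member, was lower (-0.77), a call that was lost with the dye term subtracted; these were all the calls among 7 Slit and Robo genes. Of 8 ephrins, 2 were higher and 1, Efna1, was lower. Of 9 netrin and Unc5 genes, 1, Unc5a, was higher (2.63-fold) and 3, Ntn4 (-1.58), Unc5b (-1.38) and Ntn1, were lower, with a median of 0.09. Of 16 Sox factors, 6 were higher and 3 lower; Sox2 (1.13) and Sox11 (1.94) were higher and Sox7 (-1.17), Sox17 (-2.14) and Sox18 (-1.37 and -1.43 on the arrays) were lower. Of 21 adhesion G protein-coupled receptors 4 were higher and 5 lower, with a median of 0.10, among them the endothelial Adgrl4 (-1.97 ± 0.13) and Adgrf5 (-1.58 ± 0.12) lower and the brain-enriched Adgrb1 (1.33) and Adgrb2 (1.12) higher, although a second Adgrb1 probe read 0.08.

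All 4 Serpina1 genes measured, copies of the alpha-1-antitrypsin gene whose probes may share target, were lower, with a median of -2.10 (-2.27 and -1.91 on the arrays). Of 8 guanylate binding proteins, interferon-induced GTPases, 6 were lower and 0 higher, with a median of -1.34. Gbp6 had the highest ratio of them, 1.59, and was not called. Of 17 claudins only Cldn5 was called. Of 13 connexins, Gja4, Gja5 and Gjc1 (-0.84) were lower and Gja3 was higher (2.09 ± 0.16). Of 44 protocadherins 9 were higher, led by Pcdha8 (2.28 ± 0.13), and 2 were lower, Pcdh18 (-1.39) and Pcdh1 (-0.73). Of 82 potassium channel genes 13 were higher and 5 lower, beside 10.3% and 6.87% of all genes tested. Kcnk10 (1.90 ± 0.14) was among the higher genes and Kcnq1 (-1.26 ± 0.19) among the lower.

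Among called genes with a symbol that were at least 4-fold higher at P5, 23 differed by over 1.5 log2 units between the arrays, all with the larger ratio in replicate 1, and 104 differed by less. The 23 had median ratios of 3.41 and 1.68 and median dye terms of 0.41 and 0.49, and 4 of them kept their call with the dye term subtracted. The 104 had median ratios of 2.41 and 2.28 and median dye terms of 0.05 and 0.07, and 96 of the 103 that could be tested kept it.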
